A study of Mus musculus with 6 samples.

Results

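Transcripts of 9 amino acid transporters were followed through the arrays: Slc7a1, Slc7a3, Slc7a5, Slc7a11, Slc3a2, Slc38a1, Slc38a2, Slc1a4 and Slc1a5. A probe was a member when the array's design named one of these genes, and 17 of the 41174 different probes on the array, 1 spot each, met that rule; the design names 29742 genes in all. The rule uses names only, but the genes were chosen with earlier results of these data known. The cells were primary fibroblasts grown from mouse embryos of day 15, either wild type or lacking a stretch of the Wrn helicase domain through an in-frame deletion (WS in the labels, mutant cells here). Treated cells of either genotype received 0.5 mM H2O2 for 1 hour and fresh medium for 24 hours. The 6 arrays, each with a Cy3 and a Cy5 channel, held 2 of treated against untreated wild type cells, 2 of treated against untreated mutant cells and 2 that set mutant against wild type cells without treatment. The mutant fibroblasts came from mice whose Wrn gene was altered by homologous recombination in stem cells. The study describes the treatment arrays as different biological replicates.

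These proteins carry amino acids across the plasma membrane. Slc7a5 exchanges large neutral amino acids and Slc7a11 takes up cystine, the source of cysteine for glutathione, in exchange for glutamate; both work only when bound to the heavy chain Slc3a2. Slc7a1 and Slc7a3 carry arginine, lysine and ornithine. Slc38a1 and Slc38a2 take up glutamine and other small neutral amino acids together with sodium, while Slc1a4 and Slc1a5 exchange small neutral amino acids, Slc1a5 above all glutamine. Several of these genes are textbook targets of ATF4, the transcription factor made when cells lack amino acids or meet other stress. Slc7a11 is also a target of Nfe2l2, a transcription factor of the antioxidant response.

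In untreated cells, transcripts of Slc1a5, Slc38a1, Slc7a5 and Slc3a2 stood higher in the mutant than in the wild type, Slc1a5 by 11.5-fold. This direction is likely only, as described below. Of all probes, 19.6% were called in this comparison and 9.83% were called as higher. A second Slc3a2 probe read lower without a call. With the 2 mutant against wild type arrays fitted alone, calls were left for Slc1a5 and Slc38a1 only. Of all probes, 5% were then called and 2.46% were called as higher. After H2O2 no member passed the adjusted test in either genotype when all 6 arrays were fitted together. With the arrays of each treatment fitted on their own, Slc38a1, Slc3a2, Slc7a3, Slc7a5 and Slc1a5 were higher in treated wild type cells. Slc7a5 and Slc1a5 were lower in treated mutant cells, and Slc1a4 was lower in both genotypes. Slc38a1 was called on the probe A_51_P507053 only and Slc1a4 on A_51_P371311 only. The brighter Slc1a4 probe, at -0.06 in wild type and -0.44 in mutant cells, was not called. The second Slc3a2 probe was lower after H2O2 in both genotypes, and the calls for Slc3a2 and Slc7a5 after H2O2 rest on 1 unflagged array. Of all probes, 25.1% passed in wild type and 10.7% in mutant cells. Slc38a2, Slc7a1 and Slc7a11 passed no adjusted test.

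The direction of the 2 arrays that set mutant against wild type cells is likely, not certain. The sample labels put wild type RNA in Cy5, whereas the study's own list of these arrays runs as mutant over wild type, which is Cy5 over Cy3 on them. The latter was taken here. Among 712 probes that passed the study's thresholds on these arrays and had a value in Cy3, the untreated Cy3 channels of the treatment arrays, whose dyes are not in doubt, gave the same sign for 706 (99.2%), with r = 0.94 across probes, which are not independent replicates. Read as the labels give the dyes, every mutant against wild type ratio below has the opposite sign. No pair of RNAs was hybridised with the dyes exchanged, so a probe's preference for one dye enters each ratio.

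Of the 102 spots of the members, 11 were marked as outliers by the extraction software and were left out, 5 of them on replicate 2 of wild type treatment and 4 on replicate 2 of mutant treatment. None was saturated. Over all spots that were not controls, 22.6% were marked on replicate 2 of wild type treatment and 8.81% on replicate 2 of mutant treatment, against 0.4% to 3.25% on the other arrays. In Cy5, both Slc7a11 probes were not well above background on any array and Slc7a1 was well above it on 1 of 6, so their ratios rest on signals near the floor. All 10 fibroblast markers, among them Col1a1, Dcn and Vim, were well above background in both dyes on every array. Of the markers of other cells, 2 of 7 macrophage, 1 of 6 mast cell, 4 of 6 muscle, 1 of 6 epithelial, 0 of 4 endothelial and 3 of 4 neural markers reached that mark. Among them were the muscle genes Myod1, Myog, Des and Actc1, the keratin gene Krt14 and the mast cell gene Fcer1a, whereas Cdh1, Kdr and Cpa3 were not well above background in Cy5 on any array. In such bulk RNA, fewer cells of a type and less RNA per cell cannot be told apart.

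**Figure D1:**
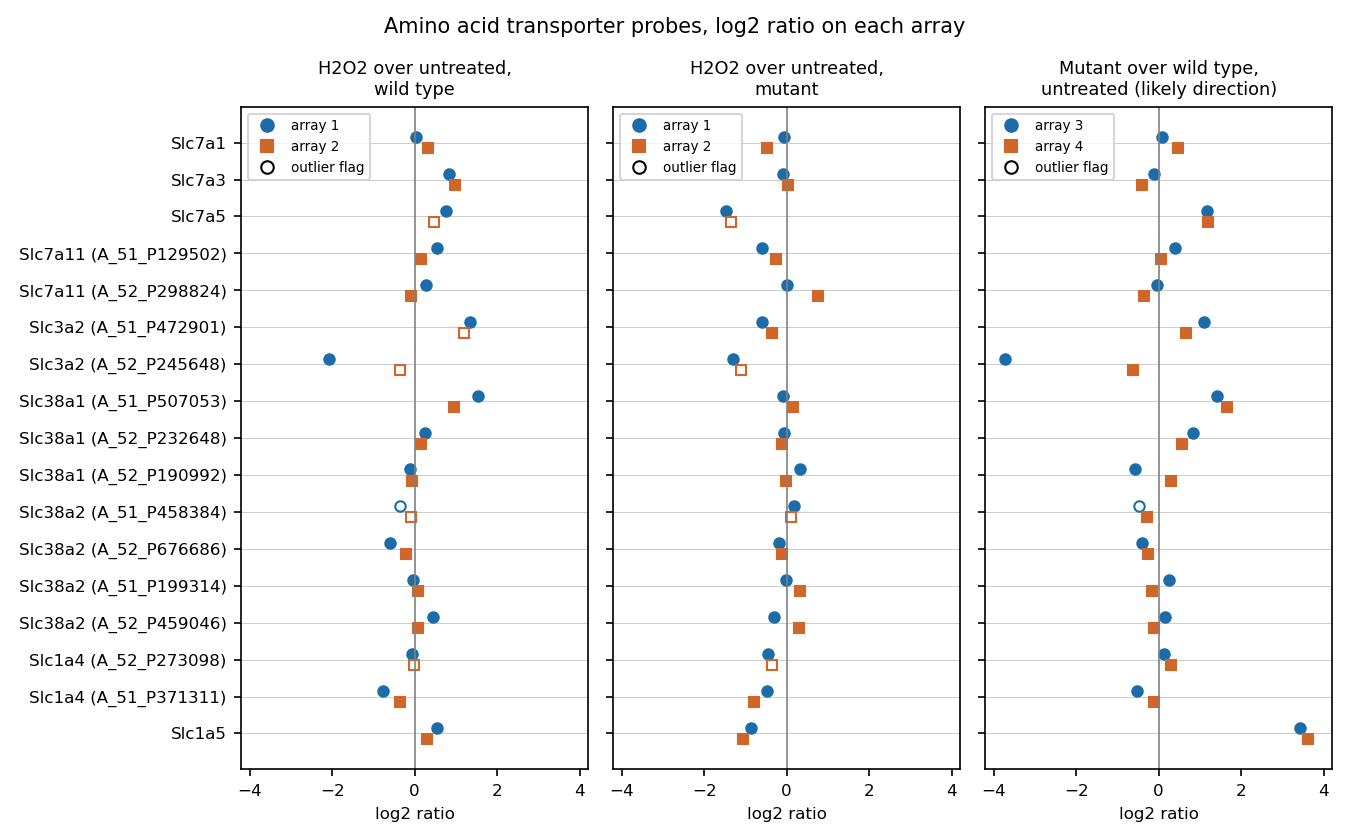
Log2 ratio of each of the 17 transporter probes on each of the 6 arrays, in 3 panels by comparison; circles and squares are the 2 arrays of a comparison and open symbols are spots with an outlier flag. Slc1a5 lies near 3.5 on both mutant against wild type arrays, above every other probe, and the 2 Slc3a2 probes lie on opposite sides of 0.

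Slc1a5, the glutamine exchanger, had log2 ratios of mutant over wild type of 3.42 and 3.62 on the 2 arrays. Both values are far above the ratios of the other members, and they differ from each other by less than they differ from 0. The fitted log2 fold change was 3.52 ± 0.16 (SE, n = 2 arrays, adjusted p = 0.000299, limma). This SE, like those of the other fitted ratios below, uses a spread estimated over all 6 arrays. With the 2 arrays fitted alone it was 0.31 (adjusted p = 0.00136, limma). In normalised log2 intensity, the 4 untreated wild type samples, all in Cy3, read 5.84, 6.24, 5.84 and 5.37, and the untreated mutant samples read 8.44 and 8.70 in Cy3 and 9.26 and 8.99 in Cy5. The genotypes did not overlap in Cy3, the dye in which both were read. Within Cy3 alone, on arrays other than those of the ratio, the mutant was higher by a log2 fold change of 2.53 ± 0.39 (SE, 2 against 2 samples; adjusted p = 0.011, limma), and Slc1a5 was the only member called, 1 of 16 probes against 0.487% of all probes. That call was lost without replicate 1 (adjusted p = 0.86) or replicate 2 (adjusted p = 0.936) of the mutant treatment arrays, while the difference stayed between 2.40 and 2.66. Untreated mutant RNA read 0.56 higher in Cy5 than in Cy3 for this probe, a gap between dyes, arrays and RNA samples, against a ratio of 3.52.

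Slc38a1, which takes up glutamine with sodium, was read by 3 probes that did not give 1 value. The probe A_51_P507053 had log2 ratios of 1.40 and 1.65 and a fitted change of 1.53 ± 0.19 (SE, n = 2 arrays, adjusted p = 0.00426, limma). With the 2 arrays fitted alone its SE was 0.31 (adjusted p = 0.0292, limma). The probe A_52_P232648 had ratios of 0.84 and 0.57 and a fitted change of 0.71 (adjusted p = 0.0235, limma). Fitted on the 2 arrays alone it had an SE of 0.31 and was not called (adjusted p = 0.23, limma). The third, A_52_P190992, designed on another transcript sequence and not well above background in Cy5 on either array, had ratios of -0.57 and 0.29, one on each side of 0. Both designs on the RefSeq transcript were thus higher and the remaining one gave no call.

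Slc7a5, the light chain that exchanges large neutral amino acids, had ratios of 1.18 and 1.19 and a change of 1.19 ± 0.17 (SE, n = 2 arrays; adjusted p = 0.0135, limma). Its partner Slc3a2 had ratios of 1.09 and 0.67 on the probe A_51_P472901, with a change of 0.88 ± 0.19 (SE, n = 2 arrays; adjusted p = 0.0254). Both arrays placed both chains above 0. With the 2 arrays fitted alone, the SE was 0.30 for Slc7a5 (adjusted p = 0.0621, limma). It was 0.31 for this Slc3a2 probe (adjusted p = 0.148, limma). A further Slc3a2 probe, A_52_P245648, designed on the same transcript, went the other way with ratios of -3.72 and -0.63, and its change of -2.17 did not pass (adjusted p = 0.0982). Its 2 values differed more than those of any other member on these arrays. Untreated mutant RNA read 1.34 lower on it in Cy5 of these arrays than in Cy3 of the mutant treatment arrays. That gap lies between dyes, arrays and RNA samples together. Slc3a2 is therefore given as higher on 1 of its 2 probes only.

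Over the 17 probes, 5 of 4 genes passed an adjusted p of 0.05, all higher in the mutant, where 19.6% of all probes passed and 9.83% passed as higher. By the study's thresholds for these arrays (an adjusted p of 0.005 with a mean intensity of 6 on the log2 scale), Slc1a5 and the first Slc38a1 probe passed, 2 of 17 against 1.76% of all probes. The median log2 fold change was 0.05 over the 17 probes and -0.0017 over all probes. Without replicate 1 or replicate 2 of the mutant treatment arrays, which enter through the shared estimate of spread, 3 of the 5 calls were left, for Slc1a5, Slc38a1 and Slc7a5. With the 2 arrays fitted alone, 2 were left, Slc1a5 and the first Slc38a1 probe, against 5% of all probes and 2.46% higher. In the same comparison 5 of 9 measured fibroblast markers were higher in the mutant, with a median log2 fold change of 1.01, 1 of 4 neural markers (Tubb3, 0.77) was also higher, and 2 of 6 mast cell markers and 1 of 6 epithelial markers were lower. Their part in the transporter differences was not tested. Within Cy3, where only Slc1a5 was called, Slc38a1 read 0.91 (A_51_P507053) and 1.00 (A_52_P232648), and Slc7a5 read 0.91. The Slc3a2 probes read 0.26 (A_51_P472901) and -0.81 (A_52_P245648). Slc7a3 differed in sign, at 1.02 within Cy3 and -0.26 as mutant over wild type.

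**Figure D2:**
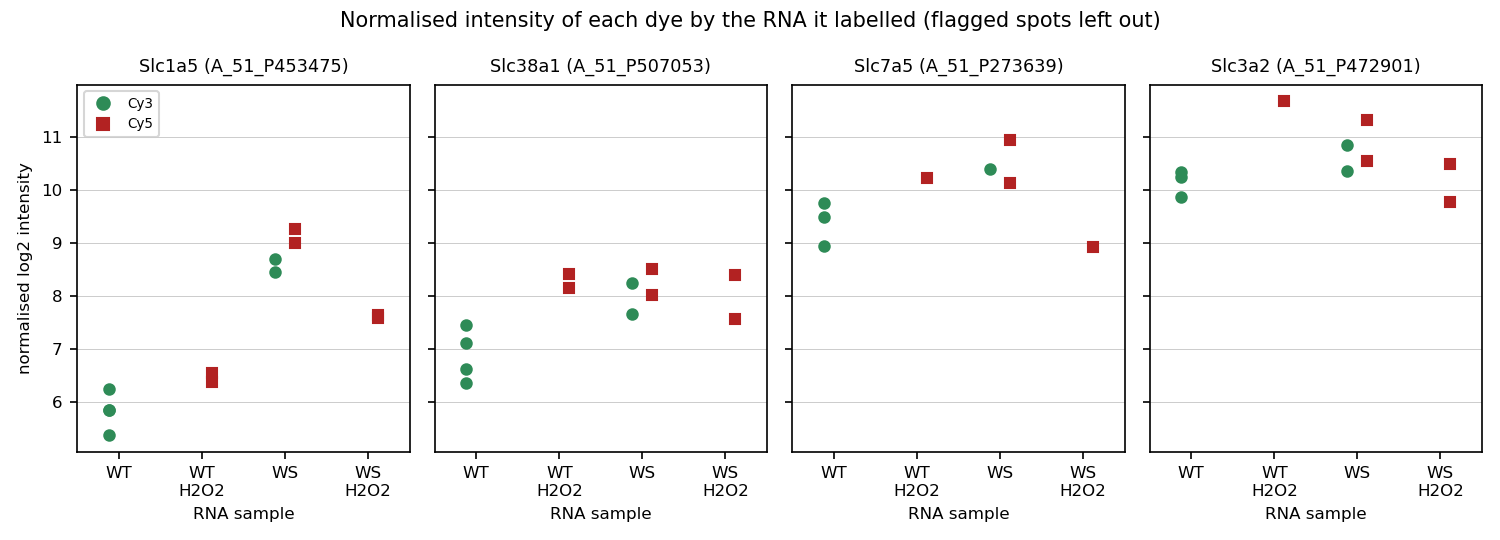
Normalised log2 intensity of 4 transporter probes in each RNA sample, untreated or H2O2-treated wild type (WT) and mutant (WS) cells; circles are Cy3, squares are Cy5, and each point is 1 array with flagged spots left out. For Slc1a5 the untreated wild type samples lie between 5.37 and 6.24 and the untreated mutant samples between 8.44 and 9.26.

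In treated wild type cells Slc38a1 gave log2 ratios of treated over untreated of 1.52 and 0.95 on the probe A_51_P507053. The fitted change was 1.24 ± 0.19 (SE, n = 2 arrays; adjusted p = 0.0523, limma). The other probes of the gene stayed between -0.12 and 0.24. Slc7a3, the cationic amino acid carrier, gave ratios of 0.84 and 0.97 and a change of 0.91 ± 0.16 (SE, n = 2 arrays; adjusted p = 0.0563). The heavy chain Slc3a2 gave 1.33 on replicate 1, on the probe A_51_P472901, while its flagged spot on replicate 2 read 1.19. Its fit used the unflagged array alone (adjusted p = 0.0714). Slc7a5 gave 0.75 on replicate 1 and 0.46 on its flagged spot of replicate 2, and Slc1a5 gave 0.53 and 0.31. All 5 genes read above 0 on both arrays, flagged spots included, on the probe named or their only one.

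None of the 16 member probes with a value was called in treated wild type cells, where 0.258% of all probes were. At an unadjusted p under 0.05, 7 passed, 5 higher and 2 lower, against 20% of all probes, 9.98% higher and 10% lower. The 2 lower were Slc1a4 (A_51_P371311), a neutral amino acid exchanger, with ratios of -0.77 and -0.36, and Slc38a2 (A_52_P676686) with a fitted change of -0.40. The median log2 fold change was 0.19 over the members and -0.0124 over all probes. When the 2 wild type treatment arrays were fitted alone, 7 of the 16 passed an adjusted p of 0.05 against 25.1% of all probes. The 5 higher were Slc38a1 (adjusted p = 0.000922), Slc7a3 (0.0014), Slc1a5 (0.0451), Slc3a2 and Slc7a5, against 12.3% of all probes higher, and the 2 lower were Slc1a4 (0.0195) and the second Slc3a2 probe, against 12.8% lower. The calls for Slc7a5 and both Slc3a2 probes rest on 1 unflagged array and take their spread from other probes, so they have no replicate check. Centring each array on its median in place of loess gave 1.34 for Slc7a5, -0.36 for Slc1a4 and -0.13 for Slc38a2 (A_52_P676686). Without replicate 3 or replicate 4 of mutant against wild type the count was 6 in each case. Both omissions leave the spread to the treatment arrays and give the same fit, so they are not separate checks. The fibroblast markers read lower in these cells, with a median of -1.06 over 6 with a value, none of them called in the fit of all 6 arrays; their part in the transporter values was not tested.

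In treated mutant cells Slc1a5 gave log2 ratios of -0.86 and -1.07, so the treated mutant cells read lower than the untreated ones on both arrays. The change was -0.96 ± 0.16 (SE, n = 2 arrays; adjusted p = 0.208, limma). In normalised log2 intensity the treated mutant samples read 7.58 and 7.63, between the untreated mutant samples above and the treated wild type samples, at 6.37 and 6.54 in the same dye, below. Slc7a5 gave -1.47 on replicate 1, and its flagged spot on replicate 2 read -1.34. Slc3a2 gave -0.59 and -0.37, Slc1a4 gave -0.47 and -0.79 on the probe A_51_P371311, and Slc38a1 and Slc7a3 stayed between -0.09 and 0.17 on the probes described for wild type cells.

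Of the 17 member probes none was called in treated mutant cells, where 0% of all 41052 probes with a value were. At an unadjusted p under 0.05, 4 passed, all lower (Slc1a5, Slc7a5, Slc3a2 and Slc1a4), against 12% of all probes and 6.21% lower. The median log2 fold change was -0.15 over the members and 0.0059 over all probes. With the 2 mutant treatment arrays fitted alone, 4 passed an adjusted p of 0.05, all lower, against 10.7% of all probes and 6.06% lower: Slc1a5 (adjusted p = 0.000932), Slc1a4 (0.0191), Slc7a5 and the discordant Slc3a2 probe. The last 2 rest on 1 unflagged array, take their spread from other probes and have no replicate check. The count was also 4 without replicate 3 or replicate 4 of mutant against wild type. Those omissions give the same fit, with the spread taken from the treatment arrays, and are not separate checks. Centring each array on its median in place of loess brought the change to -0.23 for Slc1a5 (adjusted p = 0.563), -0.20 for Slc7a5 (adjusted p = 0.727) and -0.26 for Slc1a4 (adjusted p = 0.506), and turned that of Slc3a2 on A_51_P472901 to 0.44.

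**Figure D3:**
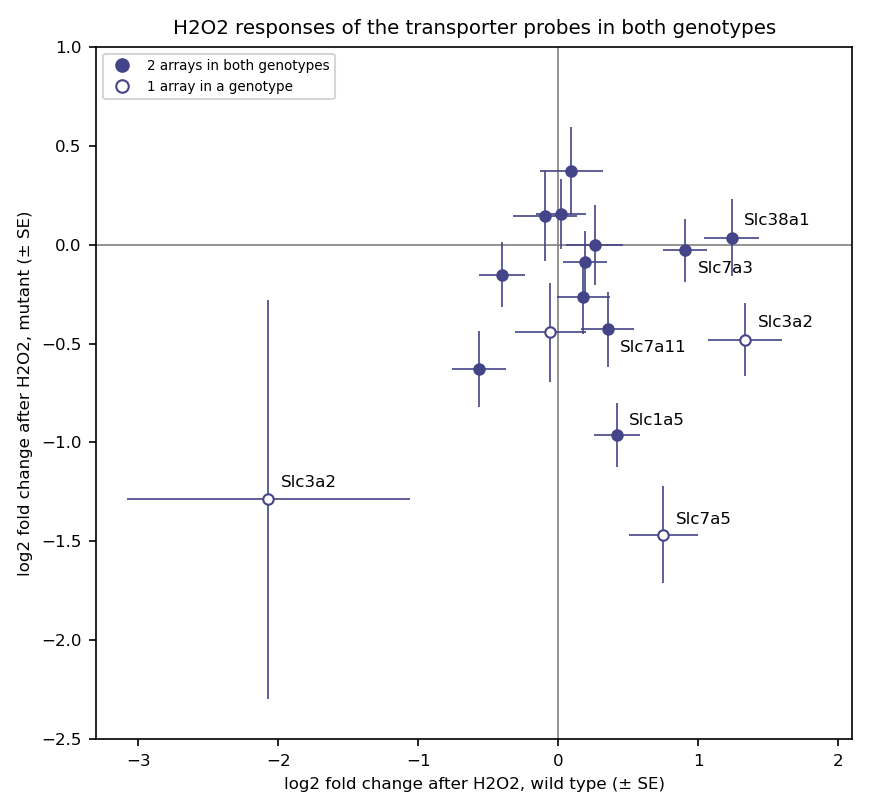
Log2 fold change after H2O2 in wild type cells (horizontal axis) and in mutant cells (vertical axis) for 16 transporter probes; points are fitted values, bars are SE, and open points rest on 1 array in a genotype. Slc1a5, Slc7a5 and 1 Slc3a2 probe lie to the right of 0 and below 0, and the other Slc3a2 probe is negative in both genotypes with wide errors.

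The responses of the genotypes were then compared directly, as mutant minus wild type. The difference was -2.22 ± 0.35 for Slc7a5 (SE, 1 array each), -1.81 ± 0.32 for Slc3a2 (A_51_P472901, 1 wild type array), -1.38 ± 0.23 for Slc1a5, -1.20 ± 0.27 for Slc38a1 (A_51_P507053), -0.94 ± 0.22 for Slc7a3 and -0.78 ± 0.27 for Slc7a11 (A_51_P129502). All 6 were lower in the mutant at an unadjusted p under 0.05, out of 16 probes, where 5.94% of all probes passed and 2.67% were lower. None passed after adjustment (adjusted p from 0.47 to 0.806, limma), and neither did any other probe of the array (0%). The median difference was -0.33 over the members and 0.0118 over all probes. With the 4 treatment arrays fitted alone, 5 of 16 passed, against 1.27% of all probes and 0.546% lower: Slc1a5 (adjusted p = 0.015), Slc38a1 (0.0398), Slc7a3 (0.044), Slc3a2 and Slc7a5. Of these, Slc7a5 has 1 unflagged array in each genotype and takes its spread from other probes, and Slc3a2 has 1 in wild type. Leaving out replicate 3 or replicate 4 of mutant against wild type gave this same fit, because the lone array left adds nothing to the spread. It is therefore no further check. Median centring brought the difference for Slc1a5 to -0.82.

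By sign alone, Slc1a5, Slc7a1, Slc7a11 (A_51_P129502) and Slc38a1 (A_52_P232648) were above 0 on both wild type arrays and below 0 on both mutant arrays, 4 of the 12 member probes with a value on all 4 arrays, against 5.39% of all such probes. Some of those values are close to 0: the wild type ratios of Slc7a1 were 0.04 and 0.32 and its mutant ratios were -0.06 and -0.47. With flagged spots kept, Slc7a5 and Slc3a2 joined them, 6 of 17 against 5.6% of all probes, and 1 Slc38a2 probe ran the other way (6.28% of all).

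Slc7a11, the cystine carrier, gave log2 ratios of 0.55 and 0.16 in treated wild type cells, -0.60 and -0.26 in treated mutant cells and 0.41 and 0.06 for mutant over wild type on the probe A_51_P129502. Its net Cy5 intensity was at most 15.6 on these arrays, and none of the 3 fits passed. The second probe, A_52_P298824, stayed between -0.34 and 0.75. For the remaining members, Slc7a1 had changes of 0.18, -0.26 and 0.27 in wild type response, mutant response and mutant over wild type, and no adjusted p under 0.337. Slc38a2, the other sodium-coupled carrier, had 4 probes whose fitted changes lay between -0.40 and 0.26. Its brightest probe, A_51_P458384, was flagged on 4 of 6 arrays and had no unflagged value in wild type treatment. Slc1a4 had changes of -0.06, -0.44 and 0.21 on the brighter of its 2 probes.

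Promoter windows, from 250 bases before to 50 after the transcript start, were at hand from RefSeq (GRCm38.p6) for 5 of the 9 genes: Slc7a1 with 2 starts, Slc7a11, Slc3a2, Slc38a2 and Slc1a4. They were searched on both strands for TGATGNAA, the composite element that ATF4 binds with C/EBP proteins, for the reverse complement of one spelling of it, TTGCATCA, which overlaps the first by construction, and for TGACNNNGC, the core of the antioxidant response element. The windows of Slc7a11 and Slc3a2 before the start are shown because these genes encode the paired chains of the cystine carrier and differ in this search; capitals mark motif matches, and both genes lie on the minus strand.
Slc7a11, chr3:50443614-50443863, minus strand: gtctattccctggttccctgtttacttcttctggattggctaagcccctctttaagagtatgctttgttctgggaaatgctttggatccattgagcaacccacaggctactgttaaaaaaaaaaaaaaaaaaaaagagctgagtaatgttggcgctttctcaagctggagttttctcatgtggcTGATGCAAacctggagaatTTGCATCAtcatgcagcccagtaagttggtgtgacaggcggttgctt
Slc3a2, chr19:8713898-8714147, minus strand: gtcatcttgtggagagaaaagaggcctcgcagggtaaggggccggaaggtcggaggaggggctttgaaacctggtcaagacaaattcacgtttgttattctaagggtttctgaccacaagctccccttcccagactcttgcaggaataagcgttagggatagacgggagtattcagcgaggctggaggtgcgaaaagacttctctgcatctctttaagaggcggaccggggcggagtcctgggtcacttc
Slc7a11 held the composite 2 times, in opposite orientations, beginning 66 and 47 bases before the start. Slc1a4 held it once across the start, from 4 bases before it. The letters TGATGNAA occur in 3.97% and TTGCATCA in 0.895% of all 32851 windows. TGACNNNGC occurred in Slc7a1, 11 bases before the upstream start, and in Slc38a2, 27 bases before the start, and in 12.4% of all windows. Slc3a2 held none of the 3 in its window. These matches describe letters only; the gene with both composites, Slc7a11, had no call in any comparison.

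Beside the members, the other genes of the same biology were counted with 1 probe per gene. Of the other amino acid transporters, 41 of 43 were found by name on the array, and in untreated cells 5 were higher and 4 lower in the mutant, with a median log2 fold change of 0.11. Slc38a4, a system A carrier, was lower, with a log2 fold change of -4.08 (adjusted p = 0.000543, limma), and also lower within Cy3 at -4.39 (adjusted p = 0.00117). Slc7a4 (2.24) and Slc7a9 (1.96), the latter a cystine transporter of kidney and gut, were higher, as were Slc6a9 (0.94), a glycine transporter, Slc38a9 (0.78), the lysosomal arginine sensor, and Slc1a6 (0.68), a neuronal glutamate transporter. The glutamate transporter Slc1a3 (-1.53), Slc6a15 (-1.47) and Slc7a6 (-0.81) were lower. Slc6a15 (4.27), Slc1a3 (4.95), Slc38a9 (5.19) and Slc7a9 (5.33) had mean log2 intensities under the study's threshold of 6, so their values rest on dim spots. These 9 calls became 5 with the 2 arrays fitted alone, where 5% of all probes were called. For comparison, 4 of the 9 members were higher and 0 lower with 1 probe per gene, with a median of 0.27, and 10.6% of all genes were higher and 8.46% lower, with a median of 0.03. After H2O2, no other amino acid transporter passed in either genotype, where 0.265% of all genes passed in wild type and 0% in mutant cells; at an unadjusted p under 0.05 there were 9 in wild type and 8 in mutant cells.

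Genes of amino acid sensing and of the ATF4 branch, 38 of 41 found, gave calls on 1 side in untreated cells: 17 of 37 were higher in the mutant and 0 lower, against 10.6% and 8.46% of all genes, with a median log2 fold change of 0.56. Asns, which makes asparagine, was higher by 1.45 (adjusted p = 0.0118), Chac1, which degrades glutathione, by 2.33 (adjusted p = 0.00182), and Ddit3, a stress transcription factor, by 2.35 on 1 array (adjusted p = 0.0061). Others among the largest were Trib3 (4.89, on 1 array), Vldlr (2.56), Nupr1 (2.40), Ddit4 (2.38) and Atf5 (2.03). In treated wild type cells 3 of 33 rose and 0 fell, against 0.134% and 0.131% of all genes. They were Chac1 at 3.18 (adjusted p = 0.0229, limma), Trib3 at 3.07 (adjusted p = 0.0404) and Vldlr at 2.34 (adjusted p = 0.0229). In treated mutant cells none passed, and the values of Chac1 (-0.78), Trib3 (-2.38, on 1 array) and Asns (-1.07, on 1 array) were below 0, while Vldlr had ratios of 0.28 and 0.51. Within Cy3, 1 of 33 was higher in the mutant, Trib3, against 0.234% of all genes. Leaving out any 1 of the 4 treatment arrays left 0 calls in the wild type response, and leaving out replicate 3 or 4 of mutant against wild type gave 14. That last fit of the wild type response called 9200 of 40303 probes. The 17 calls between untreated genotypes became 11 without either mutant treatment array, where 3704 of 41099 probes were called. They became 10 with the 2 arrays alone, where 5% of all probes were called.

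Of 20 genes listed around cystine and glutathione, 5 were higher and 5 lower in the untreated mutant, with a median of 0.02. Of all genes, 10.6% were higher and 8.46% lower. Not all are steps of glutathione synthesis, Cd44 and Nfe2l2 among them. Gclm, a subunit of the enzyme that makes the first bond of glutathione, was lower at -1.37 (adjusted p = 0.0121), and Glrx (-1.27), Cd44 (-1.08) and Gclc (-0.60) were among the others that were lower. Ggt5 (1.35), Nfe2l2 (1.31), Chac2 (0.98, on 1 array), Cth (0.97), which makes cysteine from cystathionine, and Gpx4 (0.82) were higher. With the 2 arrays fitted alone none of the 10 was called, where 5% of all probes were. Cth rose in treated wild type cells, with ratios of 2.75 and 2.31 and a change of 2.53 (adjusted p = 0.0229, limma). It was the 1 call among 19 genes with a value there, against 0.265% of all genes, and stood at 0.16 in treated mutant cells. That call too was lost when any 1 treatment array was left out. The lists were chosen with earlier results known, and none was tested as a set.

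**Figure D4:**
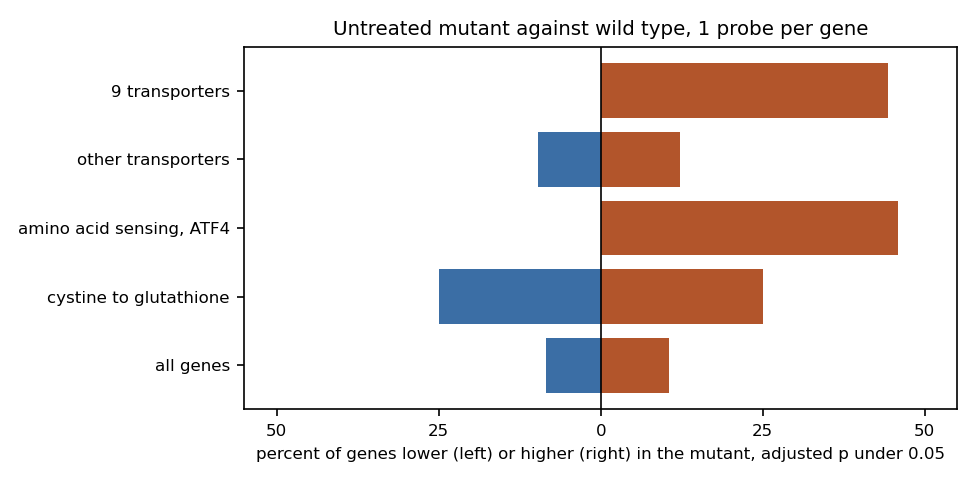
Percent of genes with an adjusted p under 0.05 in untreated mutant against wild type cells, 1 probe per gene, lower to the left and higher to the right, for the 9 transporters, 3 lists of related genes and all genes. The 9 transporters and the sensing list have bars to the right only (44.4% and 45.9%), against 10.6% of all genes.

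The probes nearest to a member over the 6 log2 ratios, by Euclidean distance, were also read. Nearest to Slc7a5, with flagged spots kept, were Sars1, the seryl-tRNA synthetase (distance 0.591), Shmt2, a mitochondrial enzyme of serine use (0.733), and Klf2 (1.07), among 17746 candidate probes. Nearest to Slc1a5 were Col5a3 (1.01), Adh1 (1.02) and Ly6c (1.05), among 8056 candidates, and nearest to Slc7a3 were Mtbp, 6820428D13 and Hdgf, at 0.422 to 0.474. For Slc38a1 they were H2-Q1, Gas5 and the unnamed transcript TC964720, at 0.584 to 0.668.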

How the data were processed

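The authors deposited, for each of the 6 arrays, the mean and local background intensity of every spot in Cy3 and Cy5 from Feature Extraction (A.7.5.1 per the file headers), its flags, and its log10 ratio. They also deposited a table of log2 ratios, background subtracted and normalized by loess; limma is named in the submitters' processing notes. The labels give total RNA and the study cytoplasmic RNA.

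In R 4.3.3 (limma 3.58.1, jsonlite 2.0.0, and the data.table package 1.17.8), log2 ratios were formed from the intensities: background median subtracted, loess within arrays, control and outlier spots left out, saturated spots kept. All 6 arrays were fitted together (lmFit, eBayes), 1 coefficient per comparison, with two-sided p-values adjusted by Benjamini-Hochberg over all probes with a value. Cy3 of the treatment arrays was tested after Aquantile normalization, which moved the median of all probes to -0.10. The procedure was tested on simulated data. Plots used Python 3.11.15 and matplotlib 3.10.9. Alternatives were normexp with an offset of 50, outliers kept, the authors' ratios, median centring, an intensity filter, a replicate block, arrays left out and the sign turned. With several probes, the brightest stands for the gene. Other genes were named when called, at most 8 per list and comparison; Slc1a6, Gclc and Gpx4 were added after their values were seen, to name more of the short counts, and 1 called gene is not reported here.

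The extraction dates set the 4 treatment arrays apart from the 2 others, so date and comparison cannot be told apart. Members and lists were chosen with earlier results of these data known. Precision is limited by 2 arrays per comparison.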

Additional observations from a re-analysis of the deposited data

Results flagged for a closer look

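4 of the 12 transporter probes with a value on all 4 treatment arrays read above 0 on both wild type arrays and below 0 on both mutant ones. Of all such probes on the array, 5.39% did. The 4 were marked for that reason. The difference of the responses, mutant minus wild type, was -1.38 for Slc1a5 (A_51_P453475), -0.78 for Slc7a11 (A_51_P129502), -0.44 for Slc7a1 (A_51_P243246) and -0.28 for Slc38a1 (A_52_P232648). limma's test of the difference itself, on all 6 arrays, called none of them (adjusted p from 0.47 to 0.935); with the 4 treatment arrays fitted alone it called Slc1a5 (adjusted p = 0.015). Slc7a11 and Slc7a1 were close to background in Cy5.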

How the results depend on the processing

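Of the 17 member probes, the wild type response called 0 in the reported fit (104 of 40303). Brackets give the same count over all probes. It called 2 with normexp background (2240 of 40303) and 3 with outlier spots kept (982 of 41174). The authors' table gave 3 (997 of 41174) and the intensity filter 2 (463 of 20491). With its own arrays alone it called 7 (10115 of 40303). With 1 array of another comparison left out it called 0 or 6 (0 or 9200 of 40303). The mutant response called 4 with its own arrays alone (4380 of 41052). With 1 array of another comparison left out it called 0 or 4 (0 or 4070 of 41052). The difference of the responses called 5 with its own arrays alone (513 of 40267). Mutant against wild type called 5 (8061 of 41099), but 3 with the Feature Extraction ratio (3352 of 41100) and 2 with its own arrays alone (2057 of 41099). With 1 treatment array left out it called 3 or 4 (3704 or 5236 of 41099). Within Cy3, 1 was called (196 of 40267), and 0 with normexp (0 of 40267). Without replicate 1 of wild type treatment, which leaves 1 wild type sample, the Cy3 difference was 2.33 for Slc1a5. It was 1.48 for Slc7a3 and 1.43 for Slc38a1 (A_52_P232648). Slc1a5 and Slc38a1 (A_51_P507053) kept their mutant against wild type calls under all alternatives run, with the direction turned where the sign was turned. Turning the sign to the labels' dyes gave -3.52 for Slc1a5, -1.53 and -0.71 for the 2 called Slc38a1 probes, -1.19 for Slc7a5 and -0.88 and 2.17 for the Slc3a2 probes. Median centring turned the mutant response of Slc3a2 (A_51_P472901) to 0.44 and brought that of Slc1a5 to -0.23, of Slc7a5 to -0.20 and of Slc1a4 to -0.26. Where 1 array of a comparison was left out, the lone array was assumed to vary like the others. For the treatment responses, leaving out replicate 3 or replicate 4 of mutant against wild type gave the same fit. For their difference that fit is also the one with the treatment arrays alone. The cause of these shifts was not tested.

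Replicate numbers 1 and 2 are shared by both treatment groups, but same-numbered arrays did not deviate together (r = -0.046 across probes), so they share only a number. With the replicate block, mutant against wild type called 3 members and 5 other transporters, where 3452 of 41099 probes were called. Within Cy3 it called 0 members (16 of 40267 probes). The wild type response called 0 sensing and 0 glutathione genes, and 0 of all 40303 probes.

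Genes called in the wild type response were 3 for sensing and ATF4, 1 for glutathione and 0 for the other transporters. The counts over all probes stand with the member probes above or in brackets. They were 9, 4 and 2 with normexp, 6, 4 and 1 with outliers kept and in the authors' table, and 14, 8 and 10 with the arrays alone. Leaving out 1 array of another comparison gave 0 or 14, 0 or 8 and 0 or 10. The Feature Extraction ratio gave 2 glutathione genes and 1 other transporter (578 of 40303 probes), and the intensity filter 2 glutathione genes. The mutant response called 10, 3 and 11 with its arrays alone. In mutant against wild type the genes called were 17, 10 and 9. They were 10, 0 and 5 with the arrays alone, and 11 to 26, 7 to 10 and 6 to 18 with 1 array left out. The Feature Extraction ratio gave 10 sensing genes and 4 other transporters, and median centring 4 glutathione genes (4373 of 41099 probes). Over all probes, the wild type response called 104, 10115 with its arrays alone and 9200 without replicate 3 or 4 of mutant against wild type. The mutant response called 0 and 4380 with its arrays alone, mutant against wild type 8061 and 2057, and Cy3 196, against 4866 without replicate 1 of wild type treatment.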
